A study of Drosophila melanogaster with 2 samples.

Results

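Chromatin immunoprecipitation followed by sequencing (ChIP-seq) maps where a protein sits on DNA. Here the protein was REPTOR, a transcription factor of the bZIP class that TORC1, a nutrient-sensing kinase, keeps inactive. There was 1 group, with 2 biological replicates that the labels number 1 and 3, and no comparison between conditions. Each was a pool of whole male and female Drosophila melanogaster embryos, 0 to 24 h old, from a transgenic line that stably carried CG13624 (the earlier name of REPTOR) with GFP at its C terminus, pulled down with an antibody against GFP. The labels used here do not give the promoter or copy number of the transgene, and peaks from whole embryos cannot be assigned to a tissue. The genes described are the 7 listed as the Keap1, cnc and antioxidant enzyme genes: Keap1, cnc, maf-S, Sod1, Sod2, Cat and Trx-2 (Trx2 in the annotation), of 13945 protein-coding genes on the 6 chromosome arms 2L, 2R, 3L, 3R, X and 4. They were chosen by name, and their peaks by position: every summit (the point of highest signal in a peak) of the optimal peak list that lay within 5 kb of a gene, and within that the promoter summits, meaning those within 1000 bp of any transcription start site of the gene. This gave 18 summits, 14 of them promoter summits, of 5321 in the list.

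Keap1 and cap'n'collar (cnc) form the main switch of the oxidative stress response. Keap1 is the adaptor that hands the longest cnc protein, the fly counterpart of mammalian Nrf2, to a Cullin-3 ubiquitin ligase; under oxidative or electrophilic stress cnc protein escapes, pairs with the small Maf protein maf-S and binds antioxidant response elements near detoxification genes. Among the enzymes, Sod1 encodes the copper-zinc and Sod2 the mitochondrial manganese superoxide dismutase, Cat encodes catalase, which breaks down hydrogen peroxide, and Trx-2 encodes a thioredoxin, which reduces disulfides in other proteins.

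The sequences under 6 of the promoter peaks are printed because they show what DNA lay below the signal in this gene group. They are dm6 sequences from the Release 6 reference, read on the strand of the gene, from 75 bp on each side of the summit and shortened to the longest stretch without an annotated untranslated region. Capitals mark matches to any of 11 short motifs searched on both strands. At Keap1 these are the peak on its first start site and the stronger peak farther upstream, at cnc its strongest peak, and at the enzymes the start-site peaks of Sod1, Cat and Trx-2.
Keap1 at the first start site, chr3R:17079946-17080070 (minus strand): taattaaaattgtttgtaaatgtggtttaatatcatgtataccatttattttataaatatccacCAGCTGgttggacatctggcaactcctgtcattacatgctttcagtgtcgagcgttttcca
Keap1 upstream, in an intron of kuk, chr3R:17080763-17080913 (minus strand): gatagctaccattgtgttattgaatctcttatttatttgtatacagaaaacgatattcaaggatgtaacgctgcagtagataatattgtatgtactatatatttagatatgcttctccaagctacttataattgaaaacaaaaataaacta
cnc strongest peak, chr3R:23190049-23190199 (minus strand): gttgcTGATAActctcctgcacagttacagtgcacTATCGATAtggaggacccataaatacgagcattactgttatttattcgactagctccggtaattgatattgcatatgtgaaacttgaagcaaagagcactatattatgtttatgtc
Sod1, chr3L:11113741-11113882 (minus strand): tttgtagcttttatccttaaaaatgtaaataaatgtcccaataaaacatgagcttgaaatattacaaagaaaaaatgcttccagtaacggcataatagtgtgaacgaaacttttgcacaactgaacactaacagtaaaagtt
Cat, chr3L:18822561-18822603 (plus strand): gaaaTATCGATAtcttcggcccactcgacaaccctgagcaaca
Trx-2, chr2L:9613517-9613574 (plus strand): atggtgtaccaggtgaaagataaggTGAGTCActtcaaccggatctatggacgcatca
The stretches of Cat and Trx-2 did not include the summit, which lay in the 5′ untranslated region of each gene. The Keap1 start-site peak held the E-box CAGCTG, and the cnc and Cat stretches each held TATCGATA, the element bound by the promoter factor DREF. The Trx-2 stretch was coding sequence followed by intron. Its match to TGANTCA, the AP-1 type of bZIP site, began 2 bp past the end of the exon, and so overlaps the splice donor at the start of the intron. No match was found in the Sod1 stretch or in the upstream Keap1 stretch.

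All 7 genes had a promoter summit, against 30.3% of all protein-coding genes (4226 of 13945). Their 18 distinct start sites had a summit within 1000 bp in 16 cases (88.9%), against 29.9% of all distinct protein-coding start sites (5764 of 19253), and 10 of the 18 belonged to cnc. Start sites close together shared summits, at the downstream end of cnc and at Trx-2, so these cases are not separate. The start sites of cnc-RD with cnc-RH and of cnc-RA counted only through a summit 844 and 995 bp away. A summit within 5 kb was found at all 7 and at 55.3% of protein-coding genes. These counts were not put to a test, because the genes were listed with earlier results of these data known. With the nearest start site alone counting for a summit, 6 of the 7 genes had a promoter summit, against 22.2% of protein-coding genes; the gene without was maf-S.

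Most of the signals at these genes lay in the lower part of the list. The signal is a value given by the authors' peak caller to each peak, with a median of 124.5 and a range from 77.9 to 2773 over the optimal list. The 18 summits ranged from 79.0 at Sod1 to 312 at Keap1, and 13 of them lay below the median of the list. Taking the strongest promoter peak of each gene, Keap1, Trx-2 (146.5) and cnc (144) were above the median of 138.4 over all protein-coding genes with a promoter peak (quartiles 102 and 210.1). Sod2 (138.1), Cat (113.5), maf-S (91.3) and Sod1 (79.0) were below it, and Sod2 lay almost on it. Keap1 was above it through a peak nearer to kuk; the strongest peak nearest to Keap1 itself had 119.6, below the median.

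**Figure D1:**
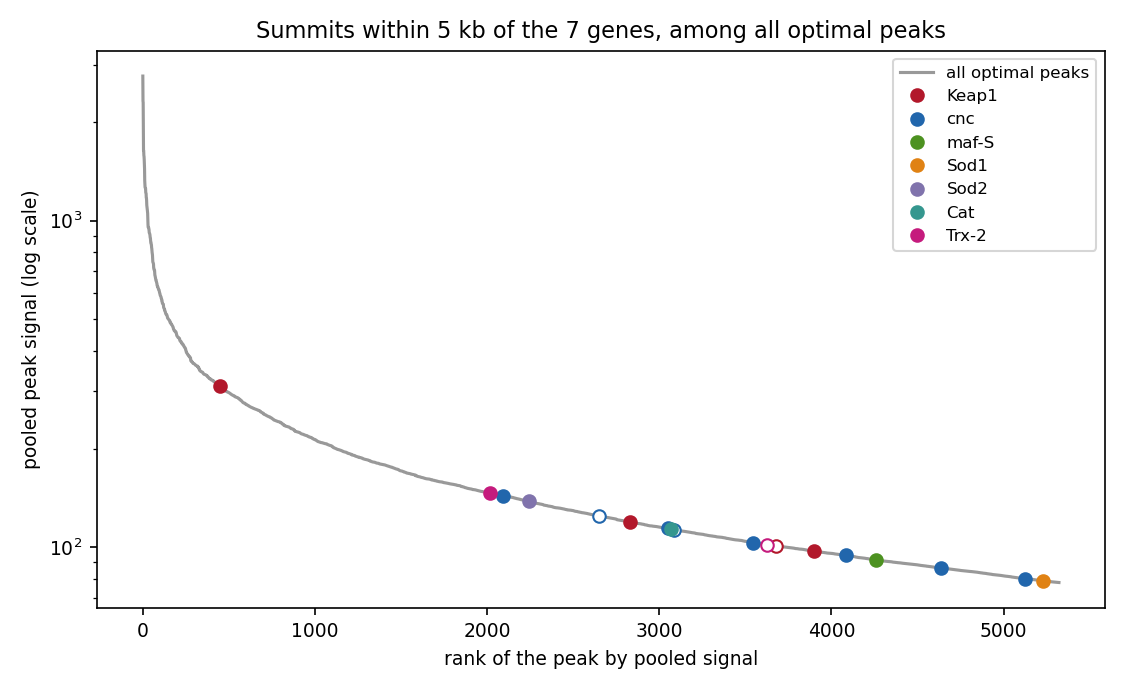
Pooled signal (log axis) against rank for all 5321 optimal peaks (grey line), with the 18 summits within 5 kb of the 7 genes as points; filled points are promoter summits and open points are the 4 others. The upstream Keap1 summit stands at rank 449, and the other 17 lie between ranks 2015 and 5231.

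Keap1, the inhibitor of the pathway, had the strongest peak of the group, but that peak was nearer to another gene. Keap1 (FBgn0038475; 3R, 17073942 to 17079945, minus strand) had 3 promoter summits and 1 more summit within 5 kb; 144 of the 4226 genes with a promoter summit (3.41%) had as many promoter summits or more. The strongest (17080626 to 17080877) had a pooled signal of 312 and rank 449, with 157 (rank 437) in replicate 1 and 151 (rank 511) in replicate 3. Its summit was 893 bp upstream of the first Keap1 start site and 594 bp from the start site of kuk, the divergent neighbour, which encodes a nuclear envelope protein, and it lay in a kuk intron. A narrow peak of 109 bp (17079941 to 17080049), the lowest width in the optimal list, had its summit 50 bp upstream of the first Keap1 start site. Its pooled signal was 119.6 (rank 2829), with 72.9 in replicate 1 (rank 2075) and 43.2 in replicate 3 (rank 5140), a log2 ratio of 0.75. This summit was nearest to Keap1 and within 1000 bp of kuk as well.

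The internal Keap1 start site, from which a single transcript with a slightly longer protein (776 against 744 amino acids) is annotated, also had a peak. Its summit lay 60 bp upstream of that site in an intron (17077944 to 17078379), with a pooled signal of 97.2 and rank 3900. Here replicate 3 was the higher, at 58.2 (rank 3231) against 39.5 (rank 5350) in replicate 1, a log2 ratio of -0.56. The start-site peaks of Keap1 thus differed between the replicates in opposite directions, while the peak near kuk differed by 0.05 on the log2 scale. The remaining Keap1 summit (17072521 to 17072956, pooled signal 101) was past the end of Keap1 and 7 bp from the start site of mRpS11, a mitochondrial ribosomal protein gene. It ranked 5263 in replicate 1 and 3251 in replicate 3, and it was a promoter summit of mRpS11 and Ns1, which encodes a nucleostemin, and not of Keap1.

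The transcription factor gene cnc had the most summits. It spans 41132 bp (FBgn0262975; 3R, 23185580 to 23226711, minus strand), with 16 annotated transcripts from 10 start sites. Within 5 kb lay 8 optimal summits, 6 of them promoter summits. A total of 41 protein-coding genes (0.294%) had 8 or more within 5 kb, and 4 of those with a promoter summit had 6 or more. Long genes have more room for summits: of the 440 protein-coding genes at least as long as cnc, 4.77% had 8 or more, with a median of 2. Start sites also give more room, and 9 protein-coding genes had 10 or more of them.

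Of the 10 cnc start sites, 8 had a summit within 1000 bp, and the summits fell into an upstream group and a downstream group. The first start site, of transcripts for a protein of 1133 amino acids, lay under overlapping peaks with summits 33 bp inside the gene (23226460 to 23226895, pooled signal 94.3, rank 4082) and 231 bp upstream (23226724 to 23227159, 86.4, rank 4634). Both overlapped the same call in each replicate, with a signal of 69.9 (rank 2228) in replicate 1 and 59.6 (rank 3093) in replicate 3. In replicate 1 that call had its summit within 150 bp of the upstream summit and not of the other. In replicate 3 it had its summit within 150 bp of the summit inside the gene, and the call within 150 bp of the upstream summit ranked 24949. With the strongest overlapping call taken, they therefore stand for 1 call per replicate, and the 18 summits for 17. The signals of 69.9 and 59.6 belong to calls with summits at different positions.

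The second start site, 4750 bp into the gene, gives the longest annotated proteins (1383 to 1430 amino acids), the size class of the Keap1-regulated isoform CncC. Its summit was 5 bp inside the gene, in the 5′ untranslated region (23221738 to 23222173). The pooled signal was 103 (rank 3543), with 52.5 (rank 3567) in replicate 1 and 46.6 (rank 4560) in replicate 3. The third start site, of transcript cnc-RL, had a summit 372 bp upstream (23214711 to 23215146) near the lower end of the optimal list, with a pooled signal of 80.1 (rank 5122). Its replicates were apart, at 45.2 (rank 4414) in replicate 1 and 27.3 (rank 10012) in replicate 3, a log2 ratio of 0.72.

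The next start sites, of cnc-RB and cnc-RP, had no summit within 1000 bp, and their nearest summits were 9093 and 1673 bp away. The strongest pooled calls there, below the optimal list, had signals of 27.9 and 22.1 and ranks of 19863 and 26571 of 30000, in a list that includes calls from background. The 5 start sites at the downstream end, which all give the short protein of 533 amino acids, shared a pair of intronic peaks. The strongest cnc peak (23189906 to 23190341, pooled signal 144, rank 2095), whose sequence with TATCGATA is printed above, had its summit 295 bp inside the gene from the start site of cnc-RE. Replicate 1 gave it 71.6 (rank 2130) and replicate 3 gave it 74.8 (rank 2076), the closest pair of ranks among the 18. The other (23191389 to 23191824, pooled signal 114, rank 3052) lay 324 bp upstream of the start site of cnc-RG, with 60.1 (rank 2893) and 55.9 (rank 3434).

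The remaining cnc summits were away from its promoters. A peak 2136 bp upstream of the gene (23228629 to 23229064) had a pooled signal of 125 and rank 2649, with 63.7 and 57.2 in replicates 1 and 3. It was in the 3′ untranslated region of CG4467, and cnc had the nearest protein-coding start site. An intronic peak 2591 bp inside the gene from the third start site (23211748 to 23212183) had 113 and rank 3083, with 64.7 and 52.2. No optimal summit lay within 1000 bp of a start site of fzo, which is nested in cnc and encodes a mitochondrial fusion protein.

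**Figure D2:**
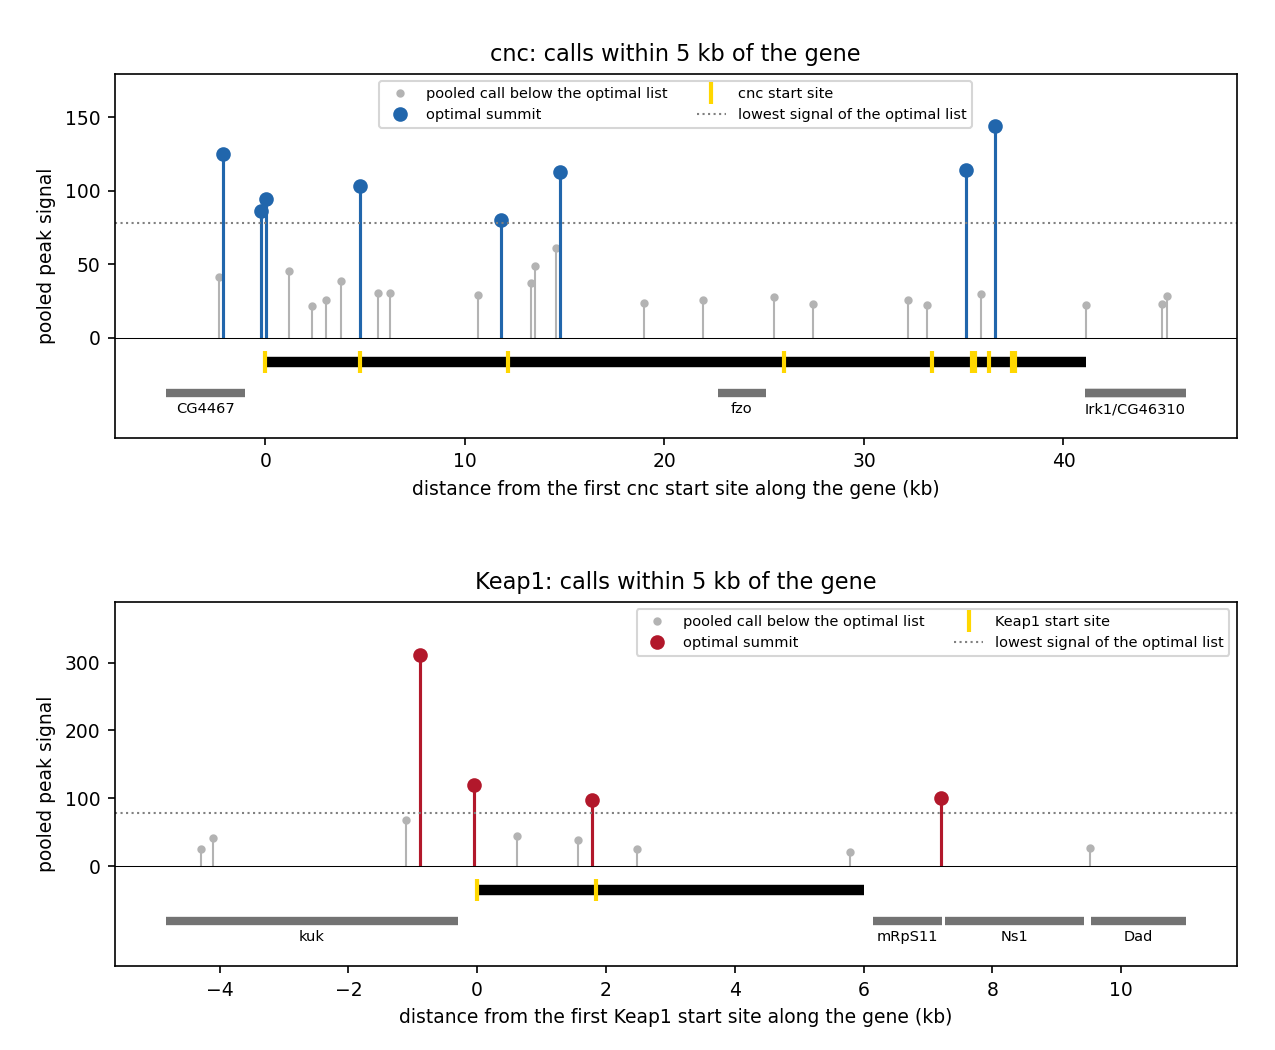
Pooled peak signal against distance from the first start site, in kb along the gene, for cnc and Keap1: coloured points are optimal summits, grey points pooled calls below the optimal list, black bars the gene, gold ticks its start sites and grey bars its neighbours. The 8 cnc summits run from 80.1 to 144, none of them in the middle of the gene, and at Keap1 the summit of 312 lies over kuk.

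The partner gene maf-S (FBgn0034534; 2R, 20640976 to 20641668, plus strand) had its promoter summit at the far end of the gene. The gene is 693 bp long, and the summit was 657 bp inside it, in the 3′ untranslated region (20641415 to 20641850), 109 bp from the start site of CG11110 and also within 1000 bp of that of rig. The pooled signal was 91.3 (rank 4257), with 45.5 (rank 4379) in replicate 1 and 51.6 (rank 3878) in replicate 3. Over its own start site maf-S had a pooled call of 69.5 (rank 6213), 45 bp inside the gene, which was not in the optimal list. With a promoter window of 500 bp maf-S had no promoter summit.

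The superoxide dismutase genes each had a single peak at the start site, at different ranks. At Sod2 (FBgn0010213; 2R, 16772785 to 16773915, minus strand) the summit was 64 bp upstream (16773761 to 16774196). Its pooled signal was 138.1 (rank 2242), with 70.0 (rank 2219) in replicate 1 and 66.6 (rank 2533) in replicate 3. Arp53D, the divergent neighbour, which encodes an actin-related protein, shared it as a promoter summit. At Sod1 (FBgn0003462; 3L, 11112281 to 11113740, minus strand) the summit was 67 bp upstream (11113589 to 11114024), with a pooled signal of 79.0 and rank 5231 of 5321.

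Sod1 had the widest difference between the replicates among the 18 summits. Replicate 1 gave a signal of 52.4 (rank 3581) and replicate 3 gave 25.9 (rank 10861), a log2 ratio of 1.02. Over 5304 optimal peaks with a call in both, that log2 ratio centred on -0.04 (median; SD 0.48), and 4.54% of peaks passed 2-fold; Sod1 was the only summit of the 18 that did. The replicate 3 call that overlapped the Sod1 peak had its summit over 150 bp away, and the call within 150 bp ranked 21946. Among the 5321 strongest calls of replicate 3 alone, Sod1 had no promoter summit.

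Cat and Trx-2 had peaks on their start sites with close replicates. At Cat (FBgn0000261; 3L, 18822604 to 18828188, plus strand) the summit was 32 bp inside the gene (18822418 to 18822853). The pooled signal was 113.5 (rank 3071), with 65.0 (rank 2543) in replicate 1 and 59.4 (rank 3114) in replicate 3. At Trx-2 (FBgn0040070; 2L, 9613166 to 9616404, plus strand) the summit was 85 bp inside the gene from the second of its start sites (9613281 to 9613716) and 333 bp from the first. The pooled signal was 146.5 (rank 2015), with 73.6 (rank 2044) and 68.9 (rank 2406). Another summit past the end of Trx-2 (9616608 to 9617043, pooled signal 102, rank 3624) was 10 bp from a start site of GlcAT-S, a glucuronyltransferase gene. It had 57.5 in replicate 1 and 42.4 in replicate 3.

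Replicate 1 gave the higher signal at 14 of the 18 summits, or at 13 of the 17 distinct calls, against 46.2% of all optimal peaks with a call in both replicates; this difference was not tested. Both replicates ranked 15 of the 18 among their first 5321 calls, against 78.6% of all optimal peaks. The others were Sod1 and the third cnc start site, which replicate 1 alone ranked so high, and the internal Keap1 start site, which replicate 3 alone did. The 15 include both summits at the first cnc start site, which overlapped the same call in each replicate. With summits matched within 150 bp, the upstream summit there ranked 24949 in replicate 3, and the other had no replicate 1 call. Log2 ratios ran from -0.56 to 1.02. The deposited −log10 q of the Sod1 peak (3.54) and of the peak at the third cnc start site (3.53) were below the ceiling of 3.99, which the other 16 summits reached, as did 4854 of the 5321 optimal peaks.

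**Figure D3:**
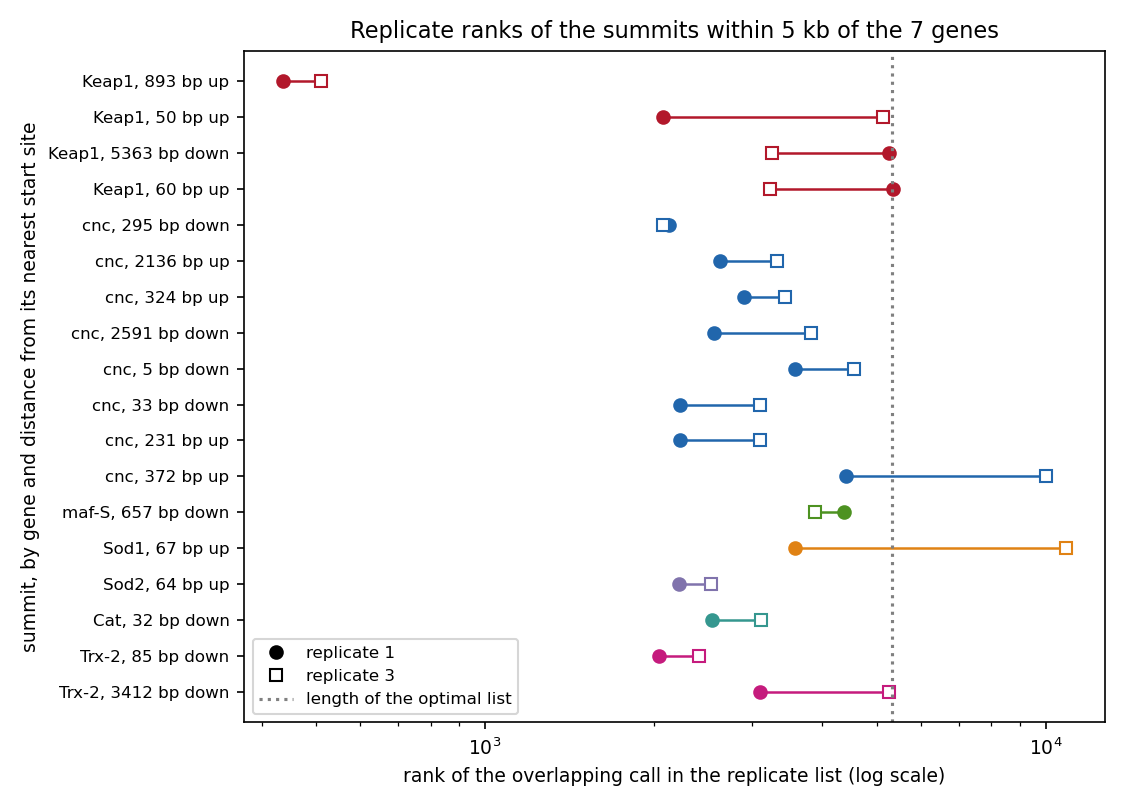
Rank (log axis) of the call that overlapped each of the 18 summits in replicate 1 (filled circles) and replicate 3 (open squares), labelled by gene and by distance upstream or downstream of its nearest start site. Points left of the dotted line are among the first 5321 calls of that replicate; the widest gaps are at Sod1 (3581 and 10861), at cnc 372 bp upstream (4414 and 10012) and at Keap1 50 bp upstream (2075 and 5140).

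The median distance of the 14 promoter summits to the nearest start site of their gene was 76 bp, and 8 of the 14 were within 100 bp. Under the same limit of 1000 bp, the 5254 pairs of a protein-coding gene and a promoter summit had a median of 141 bp, with 40.3% within 100 bp. Upstream of the start site lay 8 of the 14, against 76.7% of all pairs, and 4 of the 14 were also promoter summits of another gene, against 59.9%. These differences were not tested. Of the 14, 6 belonged to cnc, with distances taken to the nearest of its 10 start sites. No cnc promoter summit was shared, and the 4 shared ones were at Keap1, maf-S and Sod2. Of the 18 peaks, 16 had the width of 436 bp that 74.0% of optimal peaks share. The exceptions were the peak at the first Keap1 start site and the upstream Keap1 peak in a kuk intron. Mean GC content within 50 bp of the summit was 41.4% ± 8.97 (SD, n = 18 summits), against 39.0% ± 9.40 (SD) over all 5321, with a lowest value of 24.8% at Sod2.

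The motifs TGACNNNGC and TGCTGAC, searched as sites of the cnc and maf-S dimer, were not matched within 50 bp of the summits. The motifs were searched on both strands within 50 bp of each summit. The core of the antioxidant response element, TGACNNNGC, occurred at 0 of the 18 and at 2.91% of all optimal summits, and the Maf half-site TGCTGAC, which can overlap it, at 0 of 18 and 1.09%. The CRE half-site TGACGT occurred at 0 of 18 and 2.31%, and the CRE palindrome TGACGTCA, which contains it, at 0 of 18 and 0.226%. At shares this low, 18 windows hold few matches in any case. Within 100 bp, TGACNNNGC was matched at the maf-S summit, 80 bp from it, and at 6.09% of all summits. TGCTGAC was matched 71 bp from the summit at the third cnc start site, and at 2.24% of all summits.

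In all, 6 of the 18 windows (33.3%) held at least 1 of the 11 motifs within 50 bp, beside 27.8% of all optimal summits. The E-box CAGCTG, a bHLH site, was matched at the Keap1 start-site summit, beginning 6 bp from it, and at the summit near GlcAT-S (2 of 18, against 5.84% of all). The GATA site TGATAA was matched at the internal Keap1 start site and at the second cnc start site (2 of 18, against 7.80%). In the printed sequence of the strongest cnc peak it lay 65 bp from the summit, outside the 50 bp. TATCGATA was matched 33 bp from the strongest cnc summit (1 of 18, against 3.55%), and at Cat it lay 71 bp from the summit, outside the 50 bp. TGANTCA was matched at Trx-2, 43 bp from the summit and over the splice donor (1 of 18, against 2.54%). The remaining motifs, GGTCACACT, CACGTG and GTAAACA, were matched at 0 of 18, against 1.64%, 1.32% and 3.76%.

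Other genes of the antioxidant system had promoter summits about as often as all genes. In the 7 further lists, 26 of 78 genes (33.3%) had a promoter summit, beside 30.3% of all protein-coding genes, with a median strongest signal of 145.9 beside 138.4. Of the regulators of Keap1 and cnc, 4 of 6 had a peak. The strongest were sgg, for the kinase GSK3 (520.3, rank 134), and fs(1)h, for a BET bromodomain protein (209.1, shared with mys and nearer to mys). Next was slmb, for an F-box protein that marks targets for degradation (190.9). The other was ref(2)P, the fly p62 gene (152). Cul3 and Roc1a, which encode the scaffold and the RING subunit of Cullin-RING ligases, had none, and the strongest pooled calls within 1000 bp of their start sites were 55.7 (rank 8205) and 52.7 (rank 8827).

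Glutathione and thioredoxin genes had a promoter summit in 5 of 11 cases, with a median signal of 116.3. They were Txl (148, nearer to CG10576), Grx1, for a glutaredoxin (146.6, 874 bp from its start site and nearer to Blos3), the adjacent germline thioredoxin genes dhd and TrxT, which shared a single peak (116.3), and Gclm, for the modifier subunit of the enzyme that starts glutathione synthesis (96.8). With the nearest gene alone, 3 of the 11 had a promoter summit, beside 22.2% of all protein-coding genes. The catalytic partner of Gclm, Gclc, and the thioredoxin reductase gene Trxr1 had none, with pooled calls just below the list (75.9, rank 5501, and 71.3, rank 6005). Peroxidase genes had 4 of 9. The strongest were Prx6005 (Prx6a in the annotation), a peroxiredoxin gene (183.6), PHGPx (Gtpx), a glutathione peroxidase homologue gene (177.5), and Irc (111.8), and each of these peaks was nearest to another gene. The weakest was Jafrac2 (Prx4), a peroxiredoxin gene (96.9), and Jafrac1 (Prx2) had a pooled call of 75.02 (rank 5601) and no optimal summit.

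Among genes related to the superoxide dismutases, Ccs, for the copper chaperone of Sod1, had a peak of 79.0 (rank 5229), close to that of Sod1 (rank 5231) in the list. It ranked 5332 in replicate 1 and 5941 in replicate 3, and the 5321 strongest calls of either replicate alone gave Ccs no promoter summit. Sod3 and Rsod had none (pooled calls of 53.9 and 30.5). Of 5 genes listed under NADPH supply, Pgd (145.2, 953 bp inside the gene) and Zw (84.3), both for enzymes of the pentose phosphate pathway, had a peak. Men, Idh and Taldo, the last for another enzyme of that pathway, had none, with pooled calls of 59.0, 71.1 and 52.9. Redox repair, heme and iron genes had 4 of 9, with the highest median of the lists (374.9), in which a shared peak counts for both of its genes. There the adjacent ferritin genes Fer1HCH and Fer2LCH shared a peak of 443.4 (rank 200), Pink1, a mitochondrial quality control kinase gene, had 306.4 (rank 463) and SelR, for a methionine sulfoxide reductase, had 127.6.

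The glutathione S-transferases, among which are classic targets of cnc, had the lowest share, 6 of 35 (17.1%, beside 30.3%). The strongest was GstE13, with a signal of 1080 and rank 27 (ranks 24 and 28 in replicates 1 and 3; 2R, 9121979 to 9122403), 59 bp inside the gene. GstT4 (233.5, rank 848) and GstZ2 (142.6, rank 2135) followed. GstD1, a much used reporter of cnc activity, had a peak of 91.6 (rank 4237), 42 bp upstream of its start site, with ranks of 2701 and 7041 in replicates 1 and 3. It was the only 1 of 11 GstD genes with a promoter summit, and 2 of 14 GstE genes had one. No multiple-mapping filter is given in the sources used here, and these families hold close copies in clusters. Reads there may be lost or split, which was not tested.

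**Figure D4:**
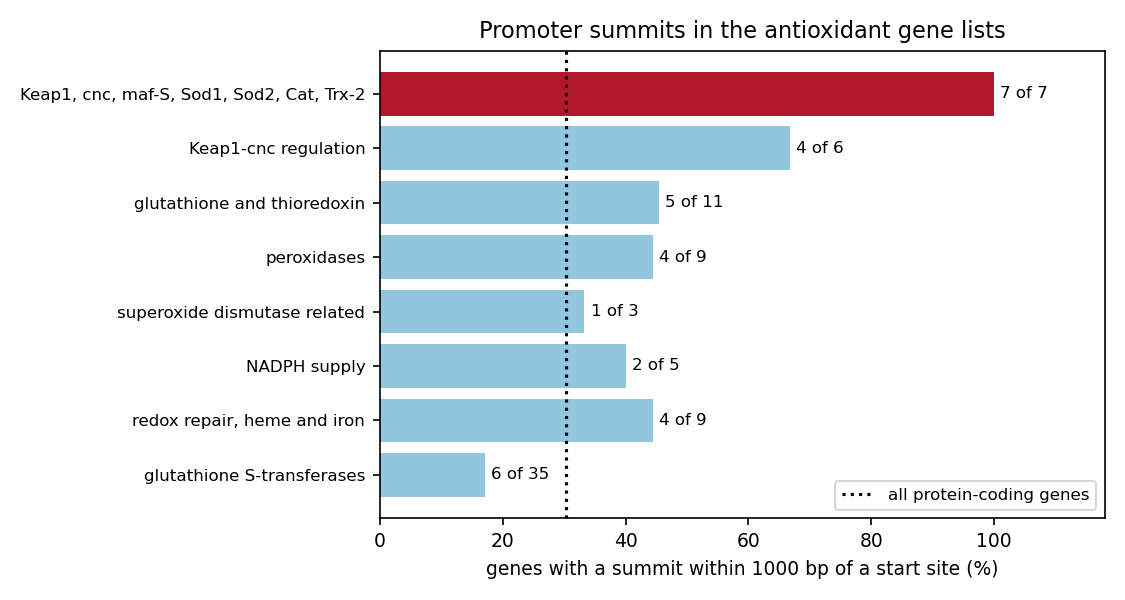
Share of genes (%) with an optimal summit within 1000 bp of a start site in the 7 genes described (red) and in each of the 7 further lists (blue), with the numbers beside each bar; the dotted line is the 30.3% of all protein-coding genes. The lists run from 17.1% for glutathione S-transferases to 66.7% for regulators of Keap1 and cnc.

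To place the 7 genes by likeness of pooled signal in the optimal list, the promoter peaks next above and below the strongest of each were taken. Keap1 stood between the peak shared by CstF64 and CG31224 (312.3) and that of Taf4, for a TFIID subunit (311.3). Trx-2 stood between Coq7, for an enzyme of ubiquinone synthesis (146.5), and the peak shared by Pdss2 and skd (146.4), and cnc between the peak shared by Chd1, for a chromatin remodeller, and Bem46 (143.8) and Ten-a (143.7). Sod2 stood between CG4042 with Pitslre (138.3) and Mlc1 (137.9), and Cat between PGRP-LB (113.6) and CRAT with CG42564 (113.5). For maf-S these were NTPase (91.4) and ced-6 (91.3), and for Sod1 kmr (79.0) and Ote with pen-2 (78.9). The likeness rests on 1 pooled list.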

How the data were processed

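The dm6 peak lists were used as deposited; the dm3 lists were not used. The notes deposited beside them describe a list for each replicate and a pooled list (30000 calls each, background included), and an optimal list thresholded by the irreproducible discovery rate. Aligner and peak caller: not given in the sources used here. Each peak carries a signal computed by the authors, and ranks were taken within each list. The −log10 q was computed by the authors and is saturated. Read depth is not given, so no value carries a depth-based error. The optimal list equals the 5321 pooled calls of highest signal.

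Positions are 1-based. Gene models came from Ensembl release 115 without transposable elements, sequences from the RefSeq copy of Release 6, and all dm6 peaks ended inside its arms. Names matched by symbol, except Trx-2 and 6 of the peroxidase list, which matched through a single RefSeq synonym. The replicate call at a peak was the strongest that overlapped it by at least 1 bp. Counting of summits and motifs was tested on simulated data. Python 3.11.15, numpy 2.4.6 and pandas 2.3.3 were used. With 1 group of 2 replicates, no statistical test was made. The genes and lists were chosen with earlier results of these data known. The genes named from each list were the 3 with the strongest promoter peak and every gene of lists of up to 5; further genes were named after their values were seen. The alternatives were windows of 500 and 2000 bp, margins of 2 and 10 kb, stricter and larger call lists, the nearest gene alone, each replicate left out, closer summit matching and a wider motif window.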

Additional observations from a re-analysis of the deposited data

How the results depend on the processing

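Of the 7 genes, all kept a promoter summit with a window of 2000 bp (35.3% of all protein-coding genes), with the 8391 pooled calls of −log10 q above 2 (40.1%) and without replicate 3 (30.4%). With 500 bp (27.0%) and by nearest gene alone (22.2%) 6 did, without maf-S, and without replicate 1 (29.6%) 6 did, without Sod1. In the stricter list, the 2660 strongest optimal peaks, 4 of the 7 kept a promoter summit (17.5% of all protein-coding genes); maf-S, Sod1 and Cat did not, and cnc went from 6 promoter summits to 1 and Keap1 from 3 to 1. There 5 of the 18 summits within 5 kb and 16 of the 26 genes of the further lists were left. A shorter list itself lowers these counts. The share of the further lists with a promoter summit was 43.6% with 2000 bp and 47.4% with the larger call list. It was 29.5% with 500 bp, 25.6% by nearest gene alone and 20.5% in the stricter list. Without replicate 1 it was 29.5%, and without replicate 3 it was 34.6%. Without replicate 1 and without replicate 3 the summits within 5 kb numbered 17 and 19. Promoter summits of cnc and Keap1 numbered 4 and 4 without replicate 1, and 6 and 2 without replicate 3. Margins of 2 and 10 kb around the genes held 17 and 27 optimal summits. Windows of 100 bp on each side of the summit held a motif at 13 of 18 summits (48.5% of all), against 6 with 50 bp (27.8%); a wider window itself raises this count. With replicate summits matched within 150 bp, 33 of the 35 ranks with a call were unchanged; the 2 that moved, in replicate 3, were at cnc (24949) and Sod1 (21946), and 1 more, at cnc in replicate 1, had no such call. With 2 replicates and no depth given, a peak near the end of the list, such as that of Sod1, cannot be told from one just outside it.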
